A study of Mus musculus with 20 samples.

Results

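Prg4, Cilp, Comp, Cytl1 and Otor encode secreted proteins of the joint surface and of the tissue around joints. They were taken as a set by gene symbol, 5 of the 24347 genes listed for each RNA library, and all 5 were among the 12938 genes that passed a filter on low values. They were chosen by their FPKM in the same 4 groups compared here, so their levels and differences are given as a description, with no test.

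Prg4 encodes lubricin, the mucin-like proteoglycan that coats cartilage and the synovial lining and keeps gliding surfaces apart. Cilp encodes a protein of the intermediate layer of articular cartilage that binds growth factors of the TGF-beta family, and Comp encodes a thrombospondin that links collagen fibrils in cartilage, tendon and ligament. Cytl1 encodes a small secreted cytokine-like protein known from cartilage, and Otor encodes otoraplin, a small secreted protein of the Mia family described in cochlea and cartilage. In limbs these tissues arise from mesenchyme that expresses Prrx1, the gene whose enhancer drives the Cre used here.

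RNA was measured in mouse femur and tibia stroma in 4 groups of 3 libraries: CAR ko, CAR wt, PaS ko and PaS wt. Bones were crushed and digested with collagenase, and cells without CD45, CD31 and lineage markers but with PDGFRα were sorted as CAR cells (Sca1-, CXCL12-abundant reticular cells) or as PaS cells (Sca1+, a progenitor and fibroblast-rich population). Animals labelled ko were Ebf1fl/fl;Prx1+/cre and animals labelled wt were Ebf1+/+;Prx1+/cre, all C57BL/6, so the wt groups carry Prx1-cre too and differ from ko in the floxed Ebf1 alleles. Prx1-cre acts broadly in limb mesenchyme, so the deletion is not limited to the sorted cells. Ages, sexes and the number of animals behind a library are not given in the sources used here. The 8 ATAC-seq samples of the study, labelled Ebf1+/+ or Ebf1-/-, were not analysed here.

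Levels are in FPKM, a fragment rate scaled to transcript length and library size, and the number of reads behind them is unknown. Libraries summed to 491801 to 526074 FPKM, and 11863 to 12295 genes had at least 1 FPKM. One library stood apart, PaS wt replicate 1, which listed 24.6% of genes at 0. Ebf1 itself was not lower in libraries labelled ko: it averaged 57.5 ± 1.99 FPKM in CAR ko and 48.1 ± 1.10 FPKM in CAR wt libraries, and 62.5 ± 2.18 FPKM in PaS ko and 55.9 ± 5.89 FPKM in PaS wt libraries (SD, n = 3 each). By the limma test used here, Ebf1 was called higher in CAR ko than in CAR wt libraries (log2 difference 0.25, SE 0.08, adjusted p = 0.04). In PaS cells it was not called (0.16, SE 0.08, adjusted p = 0.25). A value for the whole gene does not show whether the floxed part was lost, so it does not check the labels, and every direction below is between libraries labelled ko and wt. The sort gate did match its marker: Ly6a, which encodes Sca1, averaged 8.82 ± 3.01 and 4.66 ± 0.815 FPKM in CAR ko and CAR wt libraries, against 1551 ± 34.6 and 1963 ± 218 FPKM in PaS ko and PaS wt libraries. All 12 markers listed for CAR cells were called higher in CAR wt than in PaS wt libraries, where 20.5% of all tested genes were. All 13 listed for PaS cells and fibroblasts were called lower, where 22.7% of all tested genes were.

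The 5 genes did not share 1 pattern. In CAR libraries each of them was higher in ko than in wt. In PaS libraries Cilp, Cytl1 and Otor were higher in ko, Comp was level and Prg4 was lower. Between the wt populations Prg4, Cilp and Comp were higher in PaS cells, and Cytl1 was higher in CAR cells.

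**Figure D1:**
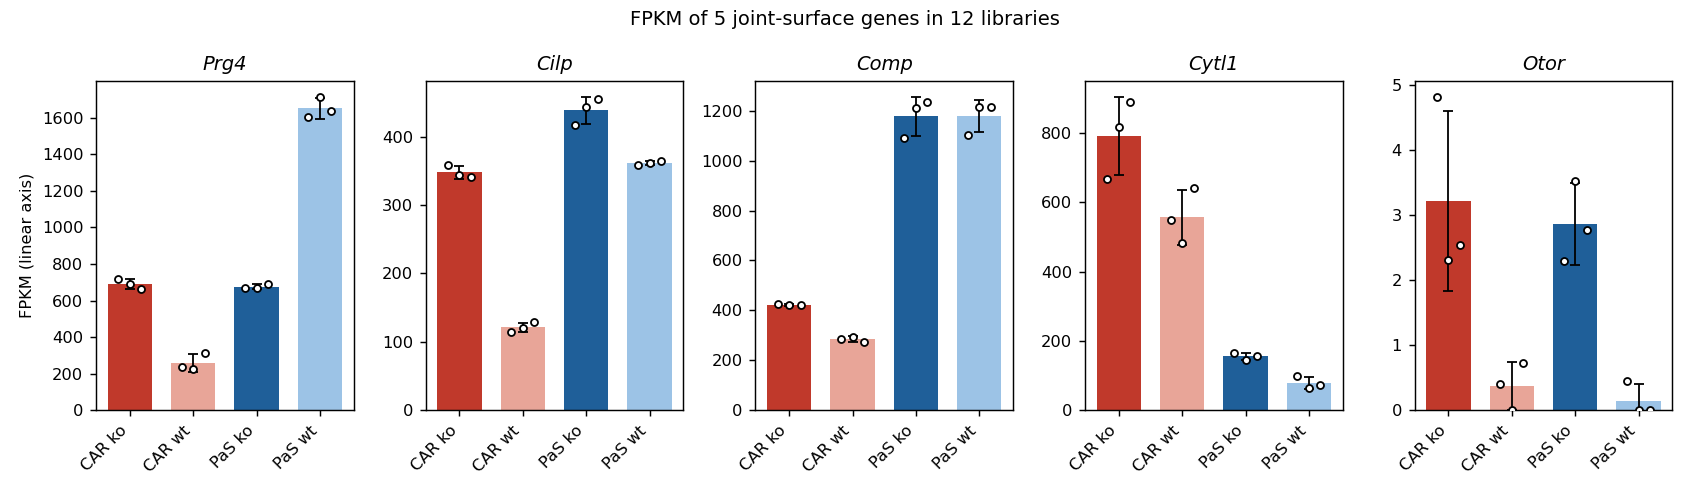
FPKM (linear axis from 0, scaled for each gene) of the 5 genes in CAR ko, CAR wt, PaS ko and PaS wt libraries. Circles are single libraries, bars are means and whiskers are standard deviations of 3 libraries. Prg4 averaged 691 FPKM in CAR ko and 675 FPKM in PaS ko libraries, between 259 FPKM in CAR wt and 1650 FPKM in PaS wt libraries, and Comp was level between PaS ko and PaS wt.

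Prg4, the lubricant of the joint surface, went opposite ways in the populations. It had 720.0, 688 and 666 FPKM in CAR ko libraries, against 238, 226 and 313 FPKM in CAR wt libraries. It had 666, 667 and 692 FPKM in PaS ko libraries, against 1602, 1714 and 1634 FPKM in PaS wt libraries. The ko libraries of both populations lie in one narrow band, above every CAR wt library and below every PaS wt library. The ratio of means was 2.67 for CAR ko over wt and 0.409 for PaS ko over wt. On the log2(FPKM + 1) scale of the fit, the ko minus wt difference was 1.43 (SE 0.09) in CAR cells and -1.29 (SE 0.09) in PaS cells. Prg4 was 6.36 times higher in PaS wt than in CAR wt libraries, while the PaS ko and CAR ko libraries overlapped, with a log2 difference of 0.03 (SE 0.09) for CAR ko minus PaS ko. By rank Prg4 stood between 25 and 30 in PaS wt libraries, counting from the most abundant of 24347 genes. It ranked 77 to 84 in PaS ko, 62 to 72 in CAR ko and 211 to 292 in CAR wt libraries. In bulk libraries such as these, fewer cells that express a gene and less of its RNA per cell cannot be told apart.

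Cilp, the intermediate-layer protein, was higher in ko libraries of both populations, by more in CAR cells. It had 358, 344 and 340.4 FPKM in CAR ko libraries, against 115, 120.3 and 129 FPKM in CAR wt libraries. It had 417, 443 and 455 FPKM in PaS ko libraries, against 358, 361 and 364 FPKM in PaS wt libraries. Neither pair of groups overlapped, and CAR ko libraries reached up to the level of PaS wt libraries. The ratio of means was 2.87 in CAR cells (log2 difference 1.51, SE 0.06) and 1.21 in PaS cells (0.28, SE 0.06). Within the ko libraries Cilp stayed lower in CAR than in PaS cells, by -0.33 (SE 0.06) on the log2 scale, against -1.57 (SE 0.06) for CAR wt minus PaS wt.

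Comp, the fibril-linking thrombospondin, differed by genotype in CAR libraries and was level in PaS libraries. It had 427, 420.1 and 422 FPKM in CAR ko libraries, against 286, 295 and 272 FPKM in CAR wt libraries, a ratio of means of 1.49 (log2 difference 0.57, SE 0.06). It had 1089, 1208 and 1235 FPKM in PaS ko libraries, against 1103, 1216 and 1214 FPKM in PaS wt libraries. The CAR groups stand apart, while the PaS groups overlap and have the same mean, 1177 FPKM. Comp was higher in PaS than in CAR cells in either genotype, by a ratio of means of 2.78 in ko and 4.14 in wt libraries.

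Cytl1, the cytokine-like protein, ran the other way between populations. It had 668, 816 and 889 FPKM in CAR ko libraries, against 548, 482 and 640.2 FPKM in CAR wt libraries. It had 165, 145 and 157 FPKM in PaS ko libraries, against 99.3, 64.4 and 72.2 FPKM in PaS wt libraries. The groups did not overlap in either population, although CAR wt replicate 3 came close to CAR ko replicate 1. The ratio of means was 1.42 in CAR cells (log2 difference 0.51, SE 0.14) and 1.98 in PaS cells (1.00, SE 0.14). CAR over PaS was 5.09 in ko and 7.08 in wt libraries. Its rank was 55 to 68 in CAR ko, 81 to 110 in CAR wt, 452 to 511 in PaS ko and 792 to 1246 in PaS wt libraries.

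Otor, otoraplin, was near the detection limit in wt libraries and low in ko libraries. It had 4.82, 2.31 and 2.54 FPKM in CAR ko libraries, against 0.402, 0 and 0.736 FPKM in CAR wt libraries. It had 2.29, 3.53 and 2.78 FPKM in PaS ko libraries, against 0.445, 0 and 0 FPKM in PaS wt libraries. Every ko library was above every wt library in both populations, and the ko groups of CAR and PaS cells overlapped. No wt library reached 1 FPKM, so Otor passed the filter on low values through its ko libraries alone. Relative depth was estimated from ratios of very low FPKM values between libraries, since read counts are unknown. The estimate was lowest, 0.890, for PaS wt replicate 1, although that library had the fewest genes at 0. After correction for relative depth, several Otor values fall near whole multiples of the lowest nonzero one and others do not. Read in steps of that value, Otor had 12.02, 5.58 and 6.54 steps in CAR ko libraries, against 1, 0 and 2.00 in CAR wt libraries. It had 5.99, 10.0 and 6.38 steps in PaS ko libraries, against 0.996, 0 and 0 in PaS wt libraries. Whether a step is a single fragment is not known, and no fold is given against the wt levels. The fitted ko minus wt differences, 1.60 (SE 0.26) in CAR and 1.76 (SE 0.26) in PaS cells, depend on the added constant of 1 FPKM.

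**Figure D2:**
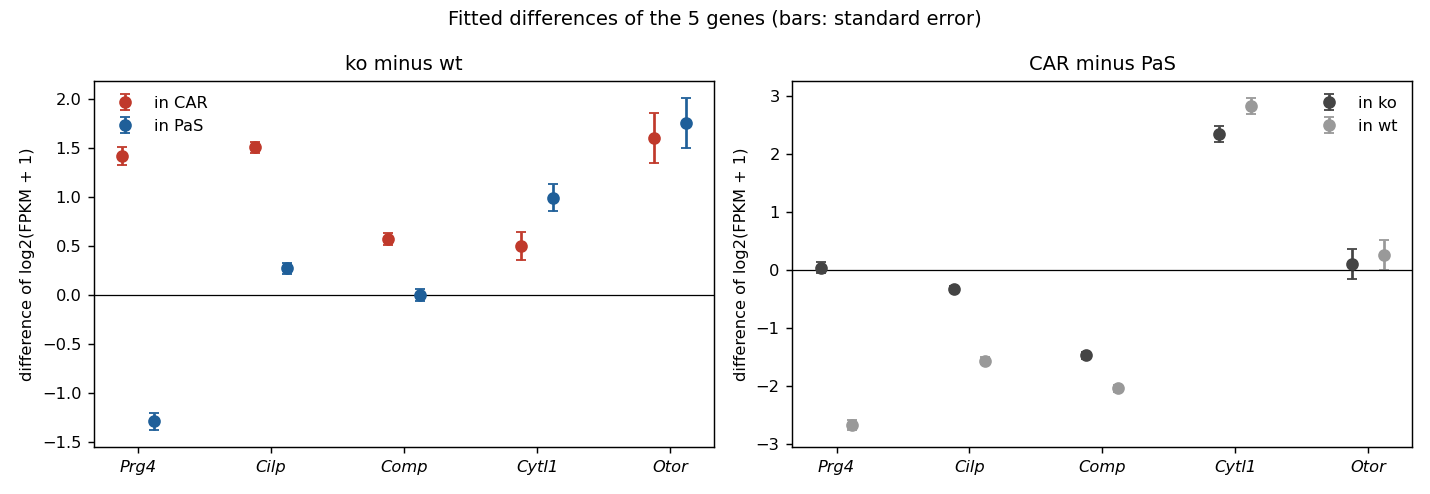
Fitted differences of log2(FPKM + 1) with standard errors for the 5 genes, ko minus wt in CAR and PaS cells (left) and CAR minus PaS in ko and wt libraries (right). Prg4 stands at 1.43 in CAR and -1.29 in PaS cells on the left, and at 0.03 in ko and -2.68 in wt libraries on the right.

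All 5 genes were higher in CAR ko than in CAR wt with no overlap of the groups, which held in that direction for 16.0% of all tested genes. In PaS cells 3 of 5 were higher without overlap and 1 of 5 lower, where the shares over all tested genes were 11.5% and 11.9%. Without overlap in both populations, 3.17% of tested genes were higher in ko in both, as Cilp, Cytl1 and Otor were, and 3.11% went opposite ways, as Prg4 did. Nothing is read from these counts, since the genes were picked for these contrasts and Otor passed the filter through its ko libraries alone. The fitted difference between the CAR and PaS effects was 2.71 (SE 0.13) for Prg4, 1.24 (SE 0.08) for Cilp, 0.57 (SE 0.09) for Comp, -0.49 (SE 0.20) for Cytl1 and -0.16 (SE 0.36) for Otor.

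The make-up of the set also differed by group. Together the 5 genes summed to 2256 ± 72.0 FPKM in CAR ko and 1222 ± 119 FPKM in CAR wt libraries, and to 2449 ± 103 FPKM in PaS ko and 3268 ± 97.2 FPKM in PaS wt libraries (SD, n = 3 each). Cytl1 made up 35.0% of that sum in CAR ko and 45.4% in CAR wt libraries, but 6.36% in PaS ko and 2.42% in PaS wt libraries. Prg4 made up 30.7% in CAR ko and 21.1% in CAR wt libraries, and 27.6% in PaS ko and 50.5% in PaS wt libraries. Comp held 48.0% in PaS ko and 36.0% in PaS wt libraries. Within a library the Prg4 to Cilp ratio was 1.99 ± 0.0284 in CAR ko and 2.13 ± 0.284 in CAR wt libraries. It was 1.54 ± 0.0504 in PaS ko libraries, whose range of 1.51 to 1.60 overlapped neither CAR group. PaS wt libraries were highest, at 4.57 ± 0.153.

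**Figure D3:**
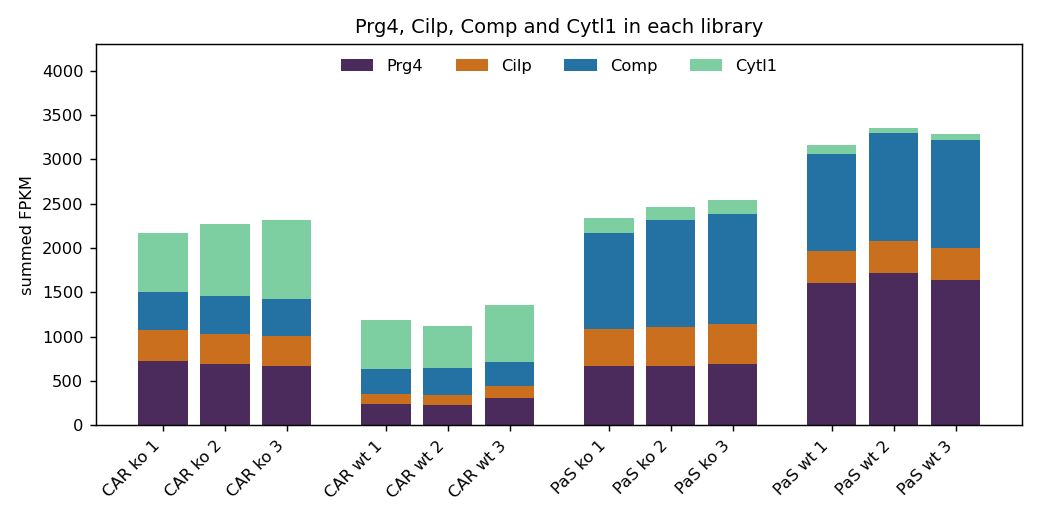
Summed FPKM of Prg4, Cilp, Comp and Cytl1 in each of the 12 libraries (Otor is too low to be seen and is left out). Cytl1 is the thickest segment in CAR wt libraries, Comp in PaS ko libraries and Prg4 in PaS wt libraries.

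Across the 12 libraries the genes fall into no single block. Pearson's r of log2(FPKM + 1), over libraries that share their groups and given as a description, was 0.79 for Prg4 with Cilp, 0.79 for Prg4 with Comp and 0.81 for Cilp with Comp. Cytl1 ran against Comp with r of -0.90 and against Prg4 with r of -0.71. For Otor, r was 0.51 with Cilp and -0.04 with Prg4.

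The genes most like each of the 5 across the 12 libraries were looked for among 5971 genes that averaged at least 10 FPKM. For Prg4 they were Pcsk6 (r = 0.968), a proprotein convertase, Abhd5 (0.967) and Dcbld2 (0.951). Pearson's r ignores the size of a change: group means of Abhd5 ran from 19.5 to 26.4 FPKM, and those of Prg4 from 259 to 1650 FPKM. Pcsk6 averaged 39.6 ± 0.388 FPKM in CAR ko and 19.4 ± 1.21 FPKM in CAR wt libraries, and 54.2 ± 4.38 FPKM in PaS ko and 135 ± 2.31 FPKM in PaS wt libraries. Like Prg4 it was highest in PaS wt and lowest in CAR wt libraries, but Pcsk6 was higher in PaS ko than in CAR ko libraries, whereas the Prg4 values of those groups overlapped. For Cilp they were Itgb5 (0.979), an integrin chain, Tspan3 (0.973) and P4ha2 (0.962), a collagen prolyl hydroxylase. For Comp they were Mmp2 (0.997), a gelatinase, Medag (0.996) and Ccdc3 (0.995). Mmp2 averaged 302 ± 15.3 FPKM in CAR ko and 183 ± 6.65 FPKM in CAR wt libraries, and 905 ± 5.49 FPKM in PaS ko and 885 ± 19.7 FPKM in PaS wt libraries. For Cytl1 they were Slc36a2 (0.994), Wisp1 (0.991), a secreted CCN protein, and Rasl11a (0.991). Wisp1 averaged 58.1 ± 3.54 FPKM in CAR ko and 30.0 ± 2.22 FPKM in CAR wt libraries, and 8.35 ± 1.22 FPKM in PaS ko and 3.23 ± 0.449 FPKM in PaS wt libraries. For Otor they were Ano1 (0.930), a chloride channel, Fam3c (0.909) and Txndc15 (0.894). Group means of Txndc15 ran only from 66.9 to 76.3 FPKM, and Otor itself was near the detection limit in wt libraries.

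**Figure D4:**
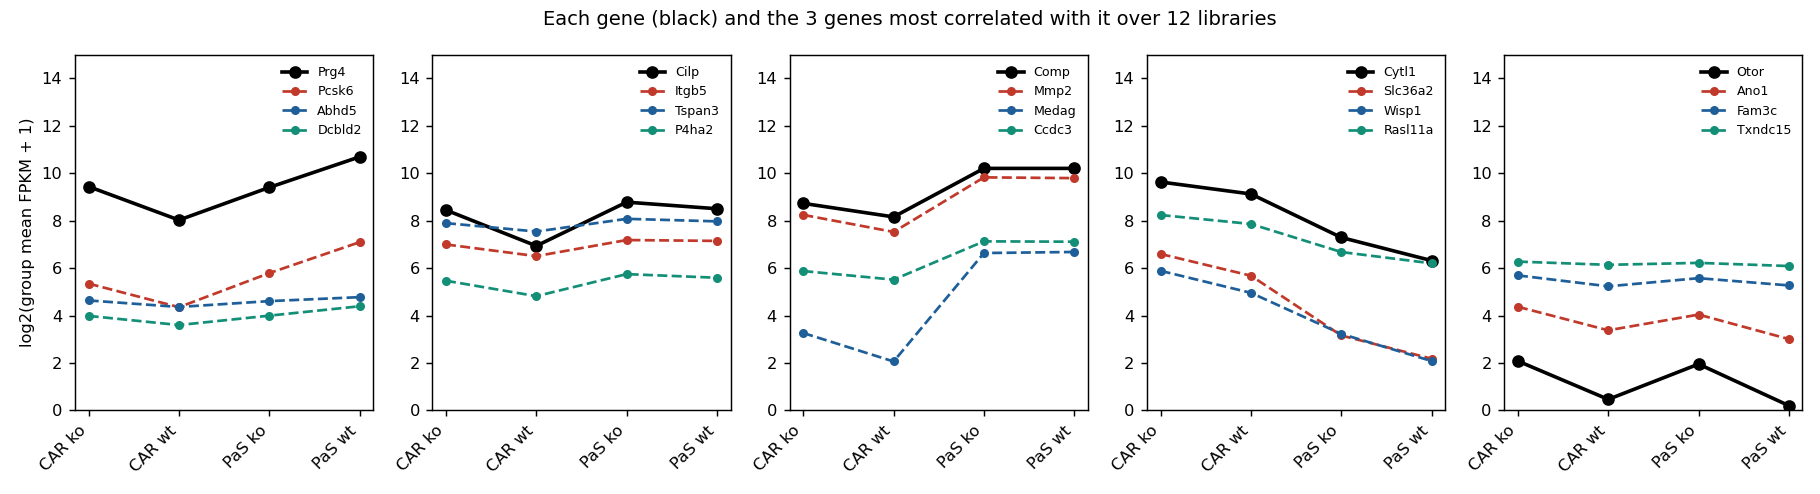
Group means as log2(mean FPKM + 1) for each of the 5 genes (black) and the 3 genes most correlated with it over 12 libraries (coloured, dashed). Lines only join the groups of 1 gene. Pcsk6 has its highest mean, 135 FPKM, in PaS wt and its lowest, 19.4 FPKM, in CAR wt libraries, as Prg4 does.

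Cilp, Cytl1 and Otor, the 3 genes higher in ko libraries of both populations, have promoter entries in RefSeq (GRCm38.p6), and the 250 bases before each start site are shown so that the letters can be read beside the values. All are on the plus strand, at chr9:65264930-65265179, chr5:37735269-37735518 and chr2:143078143-143078392. Capitals mark a TATAA match or its reverse complement, and overlapping matches run together.
Cilp: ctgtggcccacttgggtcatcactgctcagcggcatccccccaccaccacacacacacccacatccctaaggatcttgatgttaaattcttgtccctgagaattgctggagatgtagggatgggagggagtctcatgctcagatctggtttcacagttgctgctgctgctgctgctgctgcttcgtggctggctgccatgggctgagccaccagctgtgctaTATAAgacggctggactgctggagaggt
Cytl1: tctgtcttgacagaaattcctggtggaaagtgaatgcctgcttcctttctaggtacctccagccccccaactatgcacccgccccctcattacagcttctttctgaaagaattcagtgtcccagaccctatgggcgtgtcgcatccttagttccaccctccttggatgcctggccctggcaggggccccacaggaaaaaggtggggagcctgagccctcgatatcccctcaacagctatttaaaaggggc
Otor: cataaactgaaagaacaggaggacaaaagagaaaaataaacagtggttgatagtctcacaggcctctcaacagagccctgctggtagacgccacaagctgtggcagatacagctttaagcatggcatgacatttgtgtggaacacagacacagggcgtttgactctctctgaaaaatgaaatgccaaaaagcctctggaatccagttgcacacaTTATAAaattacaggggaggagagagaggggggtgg
TATAA, searched on both strands, began 28 bases before the start site of Cilp and 35 bases before that of Otor, where the forward and reverse matches overlap, and had no match for Cytl1. It was found in 22.8% of 32851 promoter windows of this length. The palindrome CCCNNGGG, the core of the site known for EBF proteins, had no match in any of the 3 windows on either strand and was found in 11.8% of all windows. No match says only that these letters are not in this window.

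The synovial lining, where lubricin is made alongside the cartilage surface, was described by a list of 20 fibroblast genes, all tested. The list is not limited to lining cells: Has1 and Thy1 are also listed for PaS cells and fibroblasts, and Vcam1 for CAR cells. In CAR cells 10 rose in ko and none fell, where 12.3% of all tested genes were called, 6.51% higher and 5.74% lower. The median log2 difference was 0.21, against 0.01 for all tested genes. In PaS cells 6 rose and 7 fell, where 7.44% of tested genes were called, 3.41% higher and 4.03% lower, and the median was -0.12, against 0.00 for all. Only 4 of these 20 were called lower in PaS ko when no filter on low values was used.

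Has1, a hyaluronan synthase that makes the other lubricant of joints, shared the direction of Prg4 in both populations. It had 14.7, 13.4 and 15.4 FPKM in CAR ko libraries, against 6.15, 7.89 and 6.31 FPKM in CAR wt libraries, a log2 difference of 1.00 (SE 0.09, adjusted p = 2e-06). It had 83.4, 84.9 and 82.9 FPKM in PaS ko libraries, against 149, 158 and 150.3 FPKM in PaS wt libraries, a log2 difference of -0.86 (SE 0.09, adjusted p = 1.2e-05). Its groups overlap in neither population. Unlike Prg4 it remained much lower in CAR ko than in PaS ko libraries (log2 difference -2.45, SE 0.09). Has2, another hyaluronan synthase of the list, was not higher in CAR ko. It averaged 1.15 ± 0.181 FPKM in CAR ko and 1.48 ± 0.261 FPKM in CAR wt libraries. In PaS cells it averaged 8.76 ± 3.24 FPKM in ko and 16.1 ± 1.85 FPKM in wt libraries. That PaS call was lost in 3 of 6 fits without 1 library (adjusted p of 0.054 to 0.062).

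Htra4, a secreted serine protease, and Fn1, fibronectin, behaved in the same way as Has1. Htra4 averaged 23.0 ± 1.54 FPKM in CAR ko and 12.7 ± 0.940 FPKM in CAR wt libraries (log2 difference 0.81, adjusted p = 1.9e-06), and 167 ± 6.20 FPKM in PaS ko and 259 ± 3.15 FPKM in PaS wt libraries (-0.63, adjusted p = 3e-05). Fn1 averaged 103 ± 17.5 FPKM in CAR ko and 56.9 ± 9.96 FPKM in CAR wt libraries (0.84, adjusted p = 0.00021), and 823 ± 11.4 FPKM in PaS ko and 1192 ± 56.0 FPKM in PaS wt libraries (-0.53, adjusted p = 0.0098). Without a filter on low values the PaS difference of Fn1 had an adjusted p of 0.06. The difference between the population effects was called for Has1 (1.85, adjusted p = 2.5e-07), Htra4 (1.44, adjusted p = 3.7e-07) and Fn1 (1.37, adjusted p = 0.00013).

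Mmp3, the matrix protease stromelysin, and Clu, clusterin, rose in both populations instead. Mmp3 averaged 61.1 ± 2.79 FPKM in CAR ko and 26.4 ± 5.02 FPKM in CAR wt libraries, and 209 ± 8.45 FPKM in PaS ko and 79.7 ± 7.10 FPKM in PaS wt libraries (log2 differences 1.20 and 1.38, adjusted p = 2e-06 and 5.3e-07). Clic5 and Cd55, lining markers picked after their values were seen, fell in PaS ko, with log2 differences of -1.03 (adjusted p = 0.00035) and -0.47 (adjusted p = 0.028). Neither was called in CAR cells (adjusted p = 0.44 and 0.5). The Cd55 call was lost in 5 of 6 fits that each left out 1 PaS library, with an adjusted p of up to 0.1.

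Among 18 tested genes of joint interzone and joint development, which lay down the joint in the embryo, 9 rose in CAR ko and none fell. Their median log2 difference was 0.40, and 6.51% of all tested genes were called higher and 5.74% lower. In PaS ko 2 of the 18 rose and 1 fell, with a median of 0.21, against 3.41% and 4.03% of all tested genes. Creb5, a transcription factor known in cattle to promote Prg4 in superficial chondrocytes, averaged 3.30 ± 0.515 FPKM in CAR ko and 1.10 ± 0.328 FPKM in CAR wt libraries (1.04, adjusted p = 0.00014). In PaS cells it averaged 27.4 ± 1.496 FPKM in ko and 30.4 ± 3.56 FPKM in wt libraries and was not called (-0.14, adjusted p = 0.66). Osr2, a transcription factor of the joint region, rose in CAR ko by 0.72 (adjusted p = 8.2e-05), and so did Barx1 by 1.04 (adjusted p = 0.00025). Col22a1, a collagen of tissue junctions, rose in CAR ko (0.73, adjusted p = 0.00013) and fell in PaS ko (-0.90, adjusted p = 1.9e-05). Its level was 47.4 ± 1.37 FPKM in CAR ko and 28.3 ± 1.70 FPKM in CAR wt libraries, against 5.35 ± 0.593 FPKM in PaS ko and 10.8 ± 0.942 FPKM in PaS wt libraries. Gdf5, the ligand that marks the interzone, was picked after its values were seen and was near 1 FPKM in all groups, with no call in either population (adjusted p = 0.15 in CAR and 0.52 in PaS cells).

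Of 21 genes of tendon and ligament, tissues rich in Comp, 10 rose in CAR ko and none fell (median 0.36). Of all tested genes 6.51% were called higher there and 5.74% lower. In PaS ko 11 of the 21 rose and 1 fell (median 0.24), against 3.41% and 4.03% of all tested genes. Only 7 of the 21 rose without PaS wt replicate 1, without PaS ko replicate 2 or with no filter on low values. Fmod, fibromodulin, averaged 379 ± 23.5 FPKM in CAR ko and 235 ± 11.2 FPKM in CAR wt libraries, and 649 ± 11.3 FPKM in PaS ko and 357 ± 16.6 FPKM in PaS wt libraries (log2 differences 0.68 and 0.86, adjusted p = 2e-06 and 1.8e-07). Lum, lumican, rose by 0.77 in CAR and 0.54 in PaS cells (adjusted p = 3.3e-07 and 1.4e-05). Scx, the tendon transcription factor, was picked after its values were seen and rose in PaS ko (1.26, adjusted p = 0.0014), with 15.5 ± 3.33 FPKM in ko and 5.88 ± 0.967 FPKM in wt libraries. Tnmd, tenomodulin, also picked later, was not called in either population (-0.36 and -0.34, adjusted p = 0.26 and 0.36), though it was called lower in CAR ko in 1 of 6 fits without 1 library (adjusted p = 0.049).

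Cartilage matrix genes split between populations. Of 20 tested genes, 7 rose and 5 fell in CAR ko (median 0.02), against 6.51% and 5.74% of all tested genes. In PaS ko 15 of the 20 rose and none fell (median 1.00), against 3.41% and 4.03%. Without CAR wt replicate 1, 3 rose in CAR ko, and without CAR ko replicate 2, 4 did. The fallers in CAR ko were the 3 chains of type IX collagen, Lect1, an angiogenesis inhibitor of cartilage, and Col2a1. Col9a3 averaged 6.13 ± 0.777 FPKM in CAR ko and 29.1 ± 4.33 FPKM in CAR wt libraries (-2.07, adjusted p = 1.1e-07), and 9.20 ± 0.0924 FPKM in PaS ko and 2.34 ± 0.374 FPKM in PaS wt libraries (1.62, adjusted p = 1.3e-06). Col2a1, the main cartilage collagen, averaged 261 ± 47.4 FPKM in CAR ko and 370 ± 44.4 FPKM in CAR wt libraries (-0.52, adjusted p = 0.02), a call lost in 3 of 6 fits that left out a library. Matn3, a matrilin that binds Comp, rose in PaS ko (2.02, adjusted p = 8.4e-07) and was not called in CAR ko (-0.32, adjusted p = 0.24). The difference between the population effects was called for 8 of the 20 genes, all lower in CAR than in PaS cells, where 6.58% of tested genes were called, 3.32% higher and 3.26% lower. The CAR differences of Prg4, Cilp and Comp were above 0 in the same libraries in which the type IX collagens fell.

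**Figure D5:**
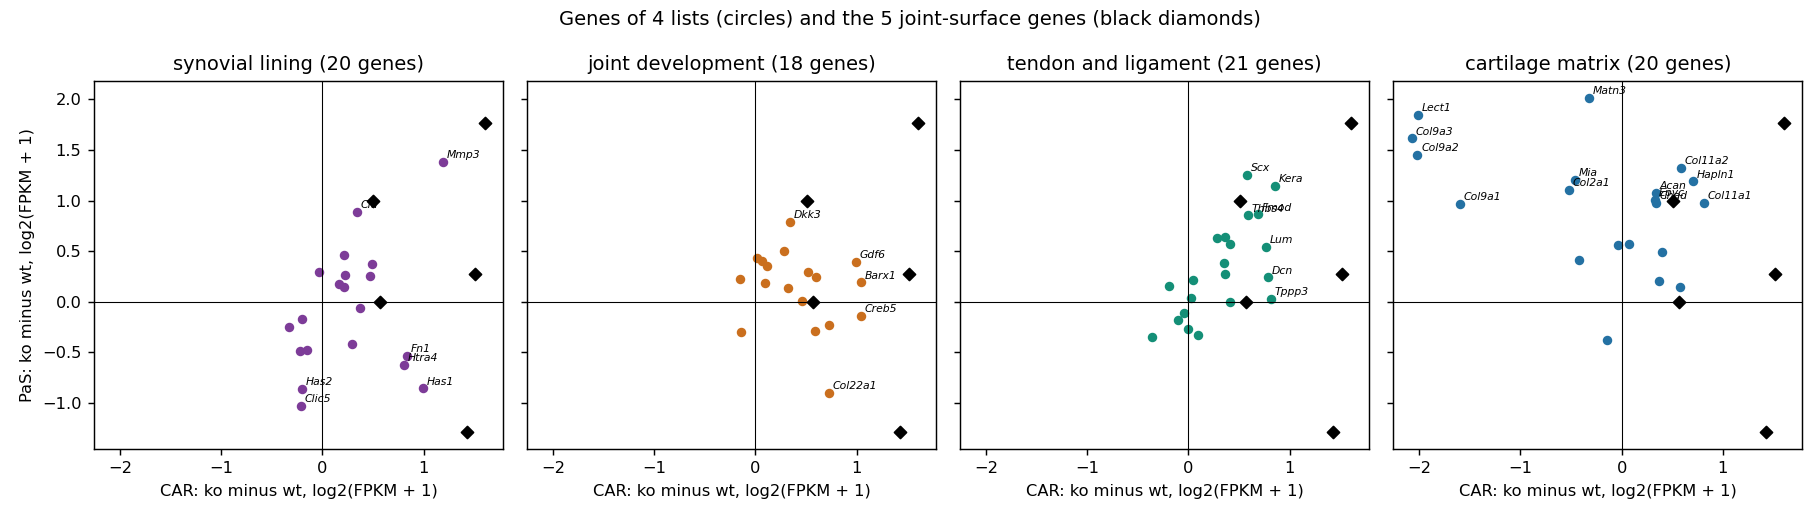
Log2 differences ko minus wt in CAR cells (x) and PaS cells (y) for genes of 4 lists (circles) and the 5 joint-surface genes (black diamonds, the same in each panel). Has1, Htra4 and Fn1 lie right of 0 and below 0, on the side of the lowest diamond, Prg4 (1.43, -1.29), while Col9a3 lies at (-2.07, 1.62).

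The paralogs of the set were also read, 8 of 9 tested. In CAR ko 4 rose and none fell (median 0.31), against 6.51% and 5.74% of all tested genes. In PaS ko 4 rose and none fell (median 0.16), against 3.41% and 4.03%. Cilp2, the paralog of Cilp, had 71.4, 70.0 and 71.5 FPKM in CAR ko libraries, against 39.2, 41.9 and 36.9 FPKM in CAR wt libraries (0.84, adjusted p = 2.3e-05). It had 101, 117 and 124 FPKM in PaS ko libraries, against 53.2, 42.7 and 53.2 FPKM in PaS wt libraries (1.18, adjusted p = 7.1e-07). Both pairs stand apart, and the Cilp to Cilp2 ratio of levels was 4.90 in CAR ko, 3.10 in CAR wt, 3.87 in PaS ko and 7.35 in PaS wt libraries.

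Of the thrombospondins related to Comp, Thbs4 and Thbs2 rose in both populations. Thbs4, found in tendon, rose by 0.59 in CAR and 0.85 in PaS cells (adjusted p = 1e-05 and 1.9e-07), and Thbs2 by 0.29 and 0.38 (adjusted p = 0.011 and 0.0019). Thbs1 rose in CAR ko (0.91, adjusted p = 9.8e-07), with 211 ± 14.8 FPKM in ko and 112 ± 6.93 FPKM in wt libraries. In PaS cells it averaged 58.3 ± 2.63 FPKM in ko and 60.4 ± 4.11 FPKM in wt libraries and was not called (-0.05, adjusted p = 0.79), as Comp was level there. Thbs3 was not called in either population (0.33 and -0.22, adjusted p = 0.063 and 0.29). It was called higher in CAR ko in 2 of 6 fits without 1 library (adjusted p = 0.0049 and 0.034), and lower in PaS ko with only the PaS groups fitted (adjusted p = 0.045). Mia, the paralog of Otor, rose in PaS ko (1.20, adjusted p = 0.0051) and was not called in CAR cells (-0.46, adjusted p = 0.26). Its CAR libraries did not overlap, with 28.4 to 30.7 FPKM in ko and 39.9 to 43.1 FPKM in wt libraries, and with only the CAR groups fitted it was called lower (adjusted p = 0.0046). Mia3 (adjusted p = 0.38 and 0.12) and Vtn, vitronectin, which shares domains with lubricin (adjusted p = 0.79 and 0.37), were not called. Mia2 was at or near 0 throughout and was not tested.

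Of 21 receptors, ligands, matrix partners and proteases that meet these proteins, 2 rose and 2 fell in CAR ko, where 12.3% of all tested genes were called. In PaS ko 4 rose and 4 fell, where 7.44% were called (medians -0.05 in CAR and -0.08 in PaS cells). Matn3, Matn4, Acan and Col9a1 are on this list and on the cartilage list, and Fn1 is on this list and on the lining list. Other lists share genes too: among them, the paralogs Thbs4 and Mia are also on the tendon and cartilage lists. Sfrp2 is on the joint development and periosteum lists. Cd44, the hyaluronan receptor that also binds lubricin, was not called in CAR or PaS cells (adjusted p = 0.44 and 0.09). Itgb3, an integrin chain, fell in PaS ko (-0.85, adjusted p = 0.0011), with 8.17 ± 0.272 FPKM in ko and 15.6 ± 1.35 FPKM in wt libraries, and was not called in CAR cells (0.28, adjusted p = 0.25). Adamts5, an aggrecanase, was called higher in CAR ko (0.35, adjusted p = 0.026), but in 5 of 6 fits without 1 library the adjusted p was 0.051 to 0.11. In periosteum, 4 of 14 genes rose and 2 fell in CAR ko (median 0.10), against 6.51% and 5.74% of all tested genes. In PaS ko 7 of the 14 rose and 2 fell (median 0.18), against 3.41% and 4.03%. Postn, periostin, averaged 425 ± 2.41 FPKM in CAR ko and 165 ± 5.12 FPKM in CAR wt libraries (1.36, adjusted p = 5e-10), against 259 ± 8.42 FPKM in PaS ko and 271 ± 10.4 FPKM in PaS wt libraries (-0.07, adjusted p = 0.54).

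Between populations 36.9% of tested genes were called in ko libraries, 17.0% higher and 19.8% lower in CAR than in PaS cells, and 43.2% in wt libraries, 20.5% higher and 22.7% lower. Without overlap, 3 of the 5 genes differed between CAR ko and PaS ko libraries, against 47.9% of tested genes, and 4 of 5 between CAR wt and PaS wt libraries, against 51.2%. Of the lining list 6 of 20 were higher and 14 lower in CAR than in PaS cells, in ko and in wt libraries alike. Of the cartilage list 8 were higher and 7 lower in CAR ko than in PaS ko libraries, while 14 were higher and 4 lower in CAR wt than in PaS wt libraries. In wt libraries Prg4, Cilp and Comp were thus on the PaS side with most lining genes, and Cytl1 was on the CAR side with most cartilage genes. The PaS side was not particular to the lining list. In CAR wt against PaS wt libraries, 11 of 18 joint development genes were lower and 3 higher. Of 21 tendon genes 13 were lower and 6 higher, and of 14 periosteal genes 11 were lower and 1 higher.

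Markers of other cells moved with the groups. Blood cell markers took 1.32% to 1.40% of all FPKM in CAR ko and 2.74% to 3.16% in CAR wt libraries, and 2.202% to 2.31% in PaS ko and 5.36% to 5.63% in PaS wt libraries. Of 29 tested blood markers, 2 rose and 25 fell in CAR ko, against 6.51% and 5.74% of all tested genes. In PaS ko 6 of the 29 rose and 14 fell, against 3.41% and 4.03%. The 13 markers of PaS cells and fibroblasts summed to 1326 to 1358 FPKM in CAR ko and 1179 to 1273 FPKM in CAR wt libraries, and to 6094 to 6451 FPKM in PaS ko and 7445 to 8135 FPKM in PaS wt libraries. In CAR libraries Sfrp4 made up most of that sum, with 1115 ± 15.6 FPKM in ko and 1054 ± 48.7 FPKM in wt libraries. The sums went in the directions of Prg4, but not every marker did. In CAR ko 6 of the 13 rose and 2 fell (median 0.34), against 6.51% and 5.74% of all tested genes. In PaS ko none of the 13 rose and 7 fell (median -0.36), against 3.41% and 4.03%. Cd34 fell in CAR ko (-0.63, adjusted p = 0.00084). Has1, described above, is 1 of the 13. Endothelial markers summed to 20.03 to 23.2 FPKM in CAR ko and 12.6 to 14.1 FPKM in CAR wt libraries, and to 73.0 to 79.9 FPKM in PaS ko and 79.5 to 93.8 FPKM in PaS wt libraries. Skeletal muscle markers summed to 9.32 to 9.80 FPKM in CAR ko and 7.06 to 9.06 FPKM in CAR wt libraries, and to 9.82 to 13.5 FPKM in PaS ko and 7.9995 to 11.8 FPKM in PaS wt libraries, with Myh1 at 0 in all CAR and all PaS wt libraries. The part of these cells in the differences of the 5 genes was not tested.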

How the data were processed

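Per the labels' protocols, poly(A)-enriched RNA of sorted mouse stromal cells went into SMART-Seq v4 libraries. The deposited values are FPKM, 1 table of 24347 symbols per library, made by the authors. The submitters' processing notes name the build mm10 and, among the tools, Cuffnorm 2.2.1, Cufflinks 2.2.1, TopHat2 2.0.14 and bcl2fastq 2.17.1.14. Gene annotation and order of steps are not given in the sources used here. No counts are given, so depth is unknown and no counting interval was made. Use of strand is not stated, so a gene and an overlapping or antisense one may share reads.

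The 12938 genes that reached 1 FPKM in 3 or more of 12 libraries were fitted as log2(FPKM + 1), which understates changes of low genes, in a 4-group model with limma 3.58.1 in R 4.3.3 (eBayes with trend, 8 residual and 6.95 prior degrees of freedom). Calls are two-sided at a Benjamini-Hochberg adjusted p under 0.05 over all tested genes, and every adjusted p is from this test. Differences are ko minus wt, or CAR minus PaS; errors are standard errors for these and SDs of 3 libraries for FPKM. The fit was tested on simulated data. Labels do not say that replicates are separate animals, and p-values then reflect the spread of these samples alone, which may be technical.

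The 5 genes, the gene lists and the tests were chosen with earlier results of these data known. Genes named are the 5, up to 4 called genes of each list per contrast (smallest p), all paralogs, the 3 genes most correlated with each of the 5, and Ebf1, Ly6a and Pdgfra; not all are described. Clic5, Cd55, Gdf5, Scx, Tnmd, Cd44, Col2a1 and Has2 were added after their values were seen. Other list genes, among them Hapln1, Mkx and Sox9, were also followed under the alternatives and are not described. In the cartilage list Cnmd is the current symbol of Lect1, which the files use and which was counted once under that name; Snorc stands in the files under an older symbol and was not counted. Promoters were matched in RefSeq by symbol for 3 of the 5 genes, leaving Prg4 and Comp without one here. Alternatives were pseudocounts of 0.1 and 5, no filter or 5 FPKM, median-ratio or quantile scaling, library weights, only the groups compared, zeros beside at least 100 FPKM in the same group set to missing, the replicate block and leaving out each library. Tables were read with Python 3.11.15 and pandas 2.3.3, and figures drawn with matplotlib 3.10.9.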

Additional observations from a re-analysis of the deposited data

Results flagged for a closer look

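Prg4 was higher in every CAR ko than in every CAR wt library and lower in every PaS ko than in every PaS wt library, so its effects lay 2.71 apart on the log2 scale. That difference was not tested, because Prg4 was chosen for it.

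By limma's interaction test, the ko minus wt effect differed between CAR and PaS cells at an adjusted p under 0.05 for 6.58% of tested genes. The 25 other genes given here are called paralogs and at most 4 called genes of each list, so 25 is not a full count. The difference of effects (CAR minus PaS, log2) was 1.85 for Has1, 1.44 for Htra4, 1.37 for Fn1 and -0.55 for Clu among lining genes. It was 1.62 for Col22a1, 1.18 for Creb5, 0.95 for Osr2 and 0.88 for Pthlh among joint development genes. Tendon genes had 0.79 for Tppp3, 0.54 for Dcn, 0.41 for Col5a1 and -0.35 for Fibin. Cartilage genes had -3.86 for Lect1, -3.69 for Col9a3, -3.47 for Col9a2, -2.57 for Col9a1 and -2.34 for Matn3. Their PaS wt means were low, from 0.297 FPKM for Col9a1 to 3.05 FPKM for Lect1. The ko minus wt call of Col9a1 in PaS cells was lost in 3 of 6 fits without 1 library (adjusted p of 0.056 to 0.081). Periosteal genes had 1.43 for Postn, 0.48 for Tmem119, 0.46 for Ecm1 and -0.42 for Sfrp2. Paralogs and partners had 0.96 for Thbs1, 0.55 for Thbs3, -1.67 for Mia and 1.13 for Itgb3. The call of Fibin was lost in 10 of 12 fits without 1 library (adjusted p of 0.051 to 0.1), and so was that of Thbs3 (0.072 to 0.1).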

How the results depend on the processing

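Counts of called genes stayed within 1.5 times of the reported ones under all alternatives run. Median-ratio scaling could hardly move them, since its factor was 1.01 in every library. Leaving out 1 library gave 1128 to 1262 calls for ko minus wt in CAR cells, against 1585 with all libraries, 735 to 826 in PaS cells, against 962, and 644 to 760 for the difference of effects, against 851. For CAR minus PaS it gave 4156 to 4321 in ko, against 4769, and 5011 to 5124 in wt libraries, against 5590. Over all alternatives and contrasts, 404 values of the 5 genes moved by less than 1 SD and 16 by more. With a pseudocount of 0.1 or 5, Otor gave 3.18 or 0.60 in CAR and 4.06 or 0.61 in PaS cells; it fails a filter of 5 FPKM. Quantile scaling gave Prg4 -1.46 and Comp 0.22 in PaS cells. Prg4 was 1.57 in CAR cells without CAR wt replicate 3. Vtn and Cd55, not called in CAR cells, changed sign there on leaving out a library: Vtn ran from -0.063 (without CAR wt replicate 2) to 0.19, also negative without CAR ko replicate 3 (-0.033), and Cd55 from -0.31 to 0.0095 (without CAR wt replicate 2). Dcn's difference of effects had an adjusted p of 0.69 with quantile scaling and Mia's 0.057 with no filter. The causes were not tested. Same-numbered libraries of different groups correlated at -0.0411 to 0.178 in their deviations from group means, and differently numbered ones at -0.132 to 0.0926. These values do not decide whether same-numbered libraries are paired, which the labels do not say. With the replicate block the counts were 1585 and 961 for ko minus wt in CAR and PaS cells, 839 for the difference of effects, 4785 for ko CAR minus ko PaS and 5568 for wt CAR minus wt PaS. Depth limits Otor most, whose wt values rest on at most 2 steps of the lowest value.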
